A study of Mus musculus with 27 samples.

Results

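Muscle satellite cells are the stem cells of skeletal muscle, and 7 genes by which they are commonly recognized, Pax7, Myf5, Myod1, Calcr, Chodl, Cdh15 and Cd82, were followed here through sorted Prx1 cells of muscle, periosteum and bone marrow. The 7 were selected on their measured values in these libraries, as genes of the satellite cell that are expressed in the muscle population named P1. They are 7 of the 30153 genes in the table, and all 7 passed the filter on low values, a normalized count of at least 10 in at least 3 libraries, which 18442 genes passed. Because the values themselves chose the genes, their levels are given as a description and without a test. Of the 7, 4 had their highest group mean in muscle P1, as did 6.69% of the 18442 genes. Myod1 was highest in muscle P2, Cdh15 in bone marrow P1 and Cd82 in bone marrow P2. Nothing is read from the count, because of how the 7 were chosen.

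The cells came from Prx1-CreER/Ai14/Rag1 mice of both sexes, aged 8 to 12 weeks, in which the Prx1 promoter drives the tamoxifen-dependent recombinase CreER and a dTomato reporter then stays on in recombined cells and in cells derived from them. All groups share the Rag1 allele, the reporter, 2 tamoxifen injections given 48 h apart and a harvest 3 days after the last injection. From muscle, periosteum and bone marrow, the sorted cells were all Prx1+ and CD45-. Those without CD105 made up P1 where they were CD200+ and P2 where they were CD200-, and those with CD105 made up P3, in which CD200 was variable, with 3 libraries in each of 9 groups and 27 libraries in all. Muscle was digested for 60 min and periosteum for 20 min, and bone marrow was flushed. The libraries are bulk RNA, so that fewer cells of a type and less RNA per cell cannot be told apart. The deposited description says that the tissues came from the same animals but not which animal gave which library, so p values treat the libraries as independent and measure only the spread between them. Transcripts of the genes used in the sort followed the gates in part. Eng, which encodes CD105, was at 178 to 382 normalized counts in muscle P1 and 4523 to 6067 in muscle P3, Ptprc, which encodes CD45, was at 5.69 to 14.8 in muscle P1, and Prrx1, which encodes Prx1, was at 1202 to 1313 there. In bone marrow, however, Ptprc was between 61.8 and 829 in all 3 populations, and Prrx1 was at 69.0 to 170 in bone marrow P2. Cd200 was at 1025 to 3275 in muscle P1 and 10.3 to 1107 in muscle P2, and these ranges overlapped in 1 library of muscle P2, replicate 2. The sum of normalized counts was 11201590 to 12278909 in the muscle P1 libraries and 8631881 to 26230908 over all 27.

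Satellite cells lie between the muscle fibre and its basement membrane and are held in quiescence until injury. Pax7 is the paired box transcription factor that maintains them, and Myf5 and MyoD (the product of Myod1) are the basic helix-loop-helix factors that commit cells to the muscle lineage, ahead of myogenin, which drives differentiation. The calcitonin receptor Calcr, the lectin-like membrane protein Chodl (chondrolectin), the adhesion protein M-cadherin (Cdh15) and the tetraspanin Cd82 are found at the cell surface, and Calcr signalling is known to help keep satellite cells quiescent.

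The sequence just before an annotated start of transcription is shown for 5 of the 7 genes, since factors of the MyoD family bind the E-box, the 6 letters CANNTG. The windows are the 250 bases before the annotated start in RefSeq (GRCm38.p6), 5′ to 3′ on the strand of the gene, with each E-box match in capitals. They are Pax7 at chr4:139832969-139833218 (minus strand), Myf5 at chr10:107486135-107486384 (minus strand), the upstream of 2 starts of Calcr at chr6:3764714-3764963 (minus strand), Chodl at chr16:78930698-78930947 (plus strand) and Cdh15 at chr8:122848124-122848373 (plus strand). The windows of Pax7 and Cdh15 lie inside the gene spans given below. Those spans are from GENCODE M21, in which these genes start further upstream than in RefSeq.
Pax7: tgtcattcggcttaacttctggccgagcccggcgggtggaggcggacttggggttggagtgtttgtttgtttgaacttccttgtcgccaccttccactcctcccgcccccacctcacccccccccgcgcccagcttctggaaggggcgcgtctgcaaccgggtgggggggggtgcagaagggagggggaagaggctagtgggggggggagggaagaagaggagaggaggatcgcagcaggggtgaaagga
Myf5: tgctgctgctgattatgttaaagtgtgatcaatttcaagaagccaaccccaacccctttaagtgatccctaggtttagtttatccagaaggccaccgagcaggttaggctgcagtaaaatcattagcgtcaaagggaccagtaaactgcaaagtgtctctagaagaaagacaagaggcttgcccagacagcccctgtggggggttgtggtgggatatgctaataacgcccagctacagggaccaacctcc
Calcr: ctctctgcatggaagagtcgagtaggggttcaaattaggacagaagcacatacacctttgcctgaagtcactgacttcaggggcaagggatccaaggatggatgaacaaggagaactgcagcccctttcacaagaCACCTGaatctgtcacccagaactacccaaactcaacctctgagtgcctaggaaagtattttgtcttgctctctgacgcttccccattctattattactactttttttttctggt
Chodl: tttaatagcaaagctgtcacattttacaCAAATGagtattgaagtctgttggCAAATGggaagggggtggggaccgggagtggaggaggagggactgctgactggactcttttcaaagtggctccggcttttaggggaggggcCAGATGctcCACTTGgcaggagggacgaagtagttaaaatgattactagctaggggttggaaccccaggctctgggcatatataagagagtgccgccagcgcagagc
Cdh15: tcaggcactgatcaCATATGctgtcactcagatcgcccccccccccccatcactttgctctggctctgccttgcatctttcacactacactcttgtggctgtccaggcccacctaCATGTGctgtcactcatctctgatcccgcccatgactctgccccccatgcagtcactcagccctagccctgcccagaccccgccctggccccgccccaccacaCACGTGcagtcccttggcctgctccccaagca
The E-box reads the same on both strands. Chodl held 4 matches and Cdh15 held 3, the Calcr window held 1 (and that of its other start 0), and the windows of Pax7 and Myf5 held 0. Cd82 has 4 annotated starts, of which 2 windows held 1 match each and 2 held 0. No window is shown for Myod1. The stricter letters CAGCTG, which are 1 form of CANNTG, were in none of these windows. Of the 32851 promoter windows of this length that were searched, 66.2% held at least 1 CANNTG and 13.0% at least 1 CAGCTG, so a match is common and is given only as a description of the sequence.

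Pax7 (ENSMUSG00000028736, chromosome 4, 139737062 to 139833528, minus strand, GRCm38 as annotated in GENCODE M21) was far higher in muscle P1 than in any other group. Its normalized counts in replicates 1, 2 and 3 of muscle P1 were 428, 242 and 228, a mean of 299 ± 112 (SD, n = 3). It was listed at 0 in all 3 libraries of muscle P2 and of periosteum P2, periosteum P3, bone marrow P1 and bone marrow P3, and in 17 of the 24 other libraries altogether. Muscle P3 held 3.28, 0.818 and 11.5. Periosteum P1 was at 0 in 2 libraries and at 31.8 in replicate 3, and bone marrow P2 was at 30.1, 7.03 and 40.2. The lowest muscle P1 library thus stood 5.67 times above the highest of the other 24.

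Myf5 (ENSMUSG00000000435, chromosome 10, 107482908 to 107486134, minus strand) had the smallest spread between muscle P1 replicates of the 7 genes, relative to its mean. Its muscle P1 values were 551, 560 and 667, a mean of 593 ± 64.4 (SD, n = 3). In muscle P2 it was at 0.717, 0 and 2.79, and in muscle P3 at 9.29, 5.73 and 14.7. The highest values outside muscle were those of periosteum P2, at 41.7, 0 and 67.5, and the gene was listed at 0 in all 3 libraries of periosteum P3 and of each bone marrow group. The lowest library of muscle P1 was 8.17 times the highest of the 24 others, the widest such gap among the 7.

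Myod1 (ENSMUSG00000009471, chromosome 7, 46376474 to 46379099, plus strand) did not peak in muscle P1. The 3 muscle P1 libraries held 483, 368 and 313 normalized counts, with a mean of 388 ± 86.5, and the 3 muscle P2 libraries held 1016, 1009 and 1066, with a mean of 1030.4 ± 31.1 (SD, n = 3). All 3 libraries of muscle P2 lay above all 3 of muscle P1, and the mean of muscle P1 was 0.377 of that of muscle P2, in which Pax7 was listed at 0. Muscle P3 was at 11.5, 13.9 and 8.31, well under both. Outside muscle, periosteum P1 replicate 3 held 31.7 and bone marrow P2 replicate 1 held 41.6, and the other libraries were between 0 and 3.43. Muscle P2 was also the group with the transcripts of muscle fibres: the summed normalized counts of 15 myofibre genes were 2885755 to 3290080 in muscle P2, 29275 to 64631 in muscle P1 and 1847 to 4245 in muscle P3. Their part in the Myod1 level was not tested.

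**Figure D1:**
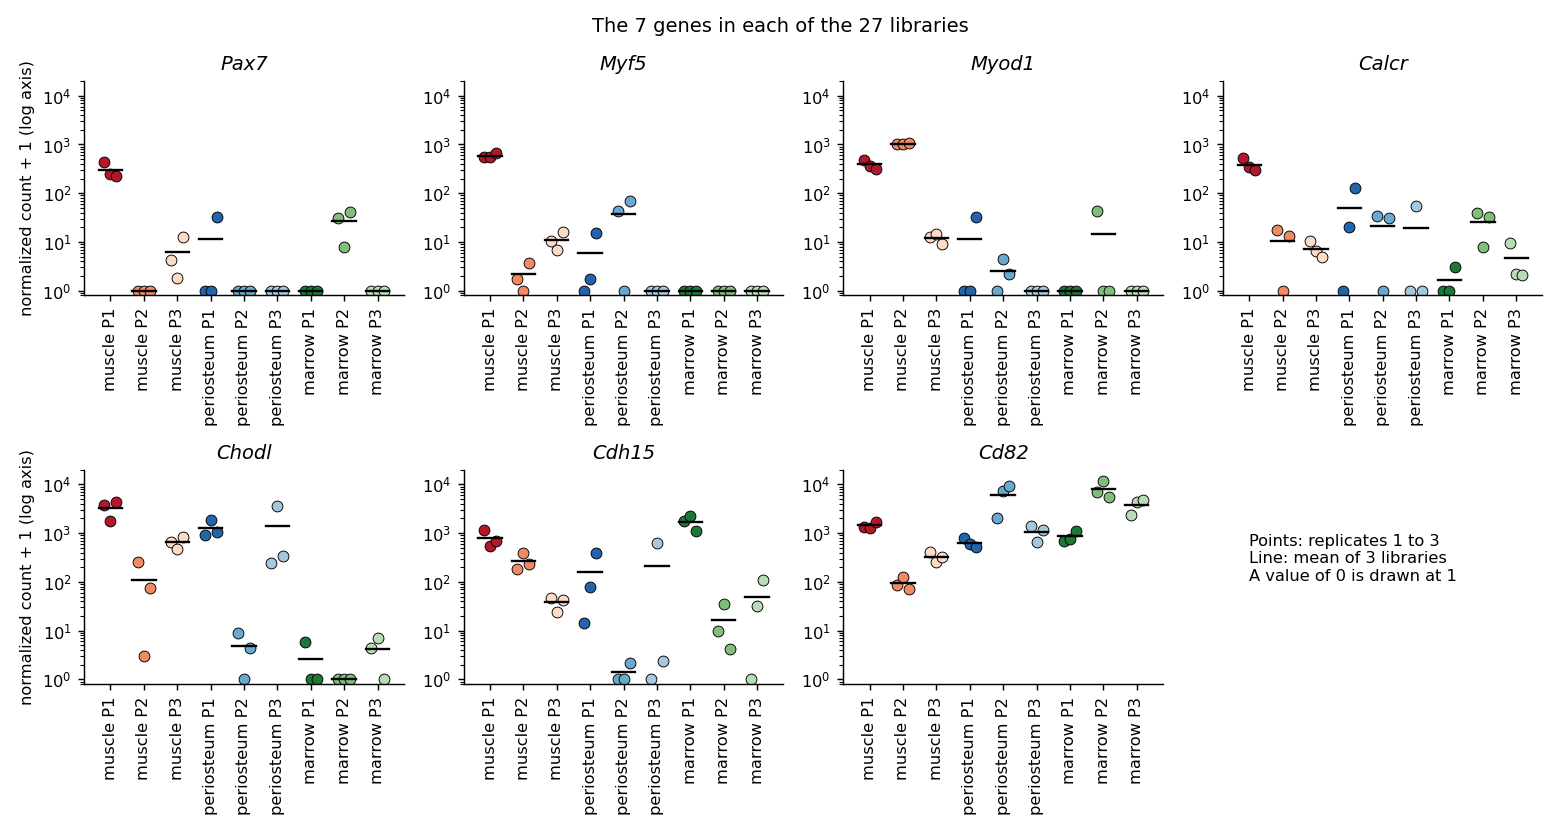
Normalized count + 1 (log axis) of each of the 7 genes in the 27 libraries, by group on the horizontal axis, with points for replicates 1 to 3, a line for their mean and values of 0 drawn at 1. Pax7, Myf5 and Calcr stand above every other library in muscle P1, Myod1 stands highest in muscle P2, and Cdh15 and Cd82 reach their highest levels in bone marrow.

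Calcr (ENSMUSG00000023964, chromosome 6, 3685680 to 3764714, minus strand) was the third gene whose 3 muscle P1 libraries lay above all 24 others. Its values there were 515, 341 and 297, a mean of 384 ± 115 (SD, n = 3). The next group was periosteum P1, at 0, 19.1 and 125, where the SD of 67.2 exceeded the mean. Low values were spread over more groups than for Pax7 or Myf5, and 9 of the 24 other libraries reached 10 normalized counts, against 4 for Pax7 and 4 for Myf5. In muscle P2 the gene was at 16.5, 0 and 12.6 and in muscle P3 at 9.29, 5.66 and 3.83, and these ranges overlapped.

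Chodl (ENSMUSG00000022860, chromosome 16, 78930948 to 78951733, plus strand) was the most abundant of the 7 genes in muscle P1 but was not restricted to it. Muscle P1 held 3708, 1809 and 4381 normalized counts, a mean of 3299.7 ± 1334 (SD, n = 3). Periosteum P1 held 905, 1833 and 1063, and muscle P3 held 644, 469 and 825, so that the lowest muscle P1 library overlapped with periosteum P1 but not with muscle P3. Periosteum P3 was uneven, at 238, 3666 and 347, and replicate 2 of that group exceeded 1 of the 3 muscle P1 libraries. Muscle P2 was lower and spread from 2.03 to 252, and no library of periosteum P2 or bone marrow was above 8.09.

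Cdh15 (ENSMUSG00000031962, chromosome 8, 122847966 to 122867397, plus strand) was high in muscle P1, at 1148, 544 and 703 with a mean of 798 ± 313, and higher on average in bone marrow P1, at 1754, 2198 and 1099 with a mean of 1684 ± 553 (SD, n = 3). The ranges of the 2 groups overlapped. Muscle P2 followed with 181, 385 and 229, below every muscle P1 library, and muscle P3 held 46.4, 23.0 and 41.6. Periosteum was uneven, at 13.2, 77.2 and 396 in P1 and at 0, 635 and 1.38 in P3, and periosteum P3 replicate 2 exceeded 1 of the 3 muscle P1 libraries. In bone marrow P1 the high Cdh15 was not accompanied by the other genes of the myogenic lineage, since Pax7, Myf5 and Myod1 were listed at 0 in all 3 of its libraries and Calcr was at 0, 0 and 2.08.

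Cd82 (ENSMUSG00000027215, chromosome 2, 93419111 to 93463140, minus strand) was the one gene of the 7 that was above 0 in all 27 libraries. Within muscle it followed P1, with 1367, 1297 and 1681 there (mean 1448 ± 205), 84.7, 125 and 70.1 in P2 and 408, 257 and 317 in P3 (SD, n = 3). Outside muscle the order of the populations was another. Bone marrow P2 had 6918, 12012 and 5457 and periosteum P2 had 2052, 7258 and 9182, and each of these 6 libraries exceeded every muscle P1 library. The summed normalized counts of 6 erythroid genes were 7958083 to 12605666 in bone marrow P2 and 3410568 to 9417724 in periosteum P2, against 2817 to 11992 in muscle P1, 170910 to 286623 in muscle P2 and at most 491003 in any library of the other 5 groups. Their part in the Cd82 level was not tested.

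The order of the 9 groups was examined for each gene with its spread. For Pax7, Myf5 and Calcr the first group, muscle P1, did not overlap with the second, and below it most neighbours overlapped. Myod1 had 2 separate steps, from muscle P2 to muscle P1 and from muscle P1 to the rest. For Chodl muscle P1 overlapped with the second group, periosteum P3, whose mean was 1417 ± 1949 (SD, n = 3), and for Cdh15 the first group, bone marrow P1, overlapped with muscle P1. Cd82 placed muscle P1 after bone marrow P2, periosteum P2 and bone marrow P3, and the lowest library of bone marrow P3, at 2347, lay above the highest of muscle P1, at 1681. A group mean that is highest in muscle P1 was found for 6.69% of the genes tested, and for 0.770% all 3 muscle P1 libraries lay above all 24 others, which was so for 3 of the 7. Nothing is read from these counts, because the genes were chosen by their levels in muscle P1.

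Lengths differ between the genes, so their levels in muscle P1 were also compared with each other per kb of exons. On that scale Chodl led muscle P1 with 601 ± 243 normalized counts per kb, followed by Cd82 with 482 ± 68.1, Myf5 with 284 ± 30.9 (mean ± SD, n = 3), Cdh15 with 245 ± 96.3, Myod1 with 208 ± 46.5, Calcr with 98.2 ± 29.4 and Pax7 with 51.1 ± 19.0. The range of Chodl overlapped with those of Cd82 and Cdh15, as did those of Myf5 and Cdh15 and those of Cdh15 and Myod1. Calcr at 75.8 to 132 lay under all 5 of these genes and above Pax7 at 38.9 to 73.0. Myf5 was higher than Pax7 per kb in each of the 3 libraries.

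**Figure D2:**
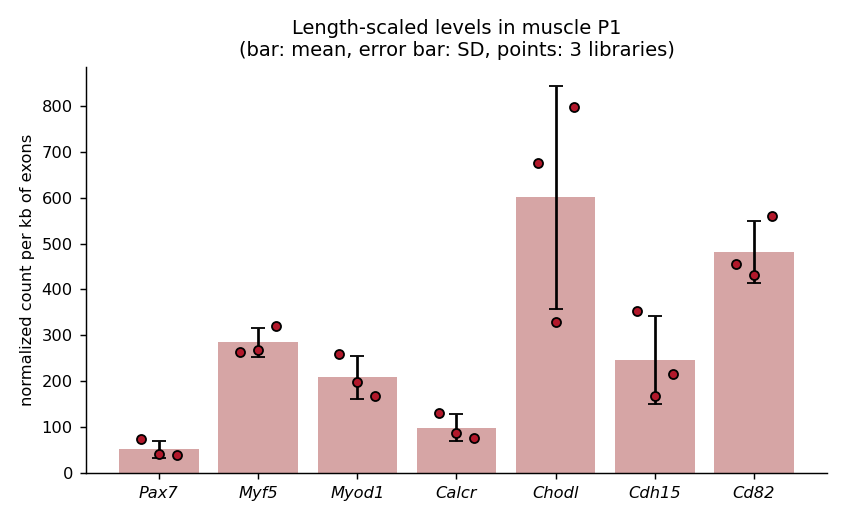
Normalized count per kb of exons (linear axis from 0) of the 7 genes in muscle P1, with bars for the mean, error bars for the SD and points for the 3 libraries. Chodl and Cd82 have the highest bars, 601 and 482, and Pax7 has the lowest, 51.1.

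Muscle P1 was then set against the 2 other muscle populations and against P1 of the other tissues. Against muscle P2, the muscle P1 libraries were all higher for 6 genes and all lower for 1, Myod1. A ratio of the means is given only where the other group had a mean of at least 10 normalized counts, which leaves out Pax7, Myf5 and Calcr in both muscle comparisons. Against muscle P2 it was 30.3 for Chodl, 15.5 for Cd82 and 3.01 for Cdh15, and the value for Chodl was 88.6 without muscle P2 replicate 1. Against muscle P3 all 7 genes had the muscle P1 libraries above, with ratios of 34.6 for Myod1, 21.6 for Cdh15, 5.11 for Chodl and 4.43 for Cd82. Over all genes tested, all 3 muscle P1 libraries lay above the other 3 in 19.0% of genes against muscle P2 and in 12.8% against muscle P3.

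Between tissues, Chodl and Cd82 were the 2 genes closest in level between muscle P1 and periosteum P1, with ratios of the means of 2.61 and 2.29, and Chodl was the one of the 7 whose libraries overlapped. The ratios were 36.7 for Myod1, 28.2 for Pax7, 8.01 for Calcr and 4.92 for Cdh15, and Myf5 was at 0, 0.739 and 14.0 in periosteum P1. These ratios rest in part on periosteum P1 replicate 3, the one library outside muscle in which all 7 genes reached 10 normalized counts. Without it, Pax7 and Myod1 were listed at 0 in periosteum P1, the mean of Calcr was 9.55 and the ratio was 17.6 for Cdh15, with Chodl at 2.41 and Cd82 at 2.08. Against bone marrow P1, Pax7, Myf5 and Myod1 were listed at 0 there, Calcr was at most 2.08 and Chodl at most 4.84, so that no ratio is given for them. Cd82 was 1.69 times higher in muscle P1, and Cdh15 was at 0.474 of the bone marrow level. The share of all genes with muscle P1 above in every library was 15.5% against periosteum P1 and 20.5% against bone marrow P1. The 4 comparisons share the muscle P1 libraries.

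Across the 27 libraries, the 7 genes did not vary as 1 group. On the scale of log2(normalized count + 1), Pearson's r was 0.76 between Pax7 and Calcr, 0.76 between Myf5 and Calcr and 0.70 between Pax7 and Myf5. Cd82 had r of -0.52 with Myod1, -0.49 with Chodl and -0.45 with Cdh15. These values describe libraries that share groups and many values of 0. Outside muscle P1, the libraries with the most genes of the 7 at 10 or more normalized counts were periosteum P1 replicate 3, with 7, and muscle P2 replicates 1 and 3 and muscle P3 replicate 3, with 5 each.

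The genes whose pattern was most like the mean of the 7 were found by the same r, over 27 libraries. They were Sox10 (0.827), Defb25 (0.805), Bsnd (0.801), Cldn3 (0.800), Hcrtr1 (0.788), Wnt6 (0.786), Nptx2 (0.779), Asb5 (0.775), Fndc3c1 (0.768) and Cnn1 (0.766). Sox10, a transcription factor of neural crest and Schwann cells, was at 91.3, 108 and 59.9 in muscle P1, and its highest value elsewhere was 109. Cnn1, a calponin of smooth muscle, was at 556, 1195 and 1507 in muscle P1 and at most 125 elsewhere, while Bsnd did not exceed 29.4 in any library. Single genes had other partners. For Chodl these were Tnmd (0.945), Mfap4 (0.932) and Crispld2 (0.896), of which Tnmd encodes the tendon protein tenomodulin. For Myod1 they were 2310015B20Rik (0.927), Smtnl1 (0.927) and Asb5 (0.922). For Cd82 they were Ccne1 (0.886), Atpif1 (0.875) and Brca1 (0.874), of which Ccne1 encodes cyclin E1. Pax7 was nearest to Trim30e-ps1 (0.902), Tmem28 (0.847) and Gldn (0.846), Myf5 to Dgkb (0.852), Nrip2 (0.797) and Bsnd (0.779), Calcr to Adamts20 (0.760), Trim30e-ps1 (0.735) and Fgfr4 (0.729), and Cdh15 to Ramp1 (0.759), Slc9a2 (0.751) and Meis1 (0.746). Trim30e-ps1 is a pseudogene, whose reads may be shared with related genes.

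A separate list of 26 other genes known from satellite cells was tested gene by gene with limma, a gene being called when its adjusted p was under 0.05 and its log2 difference exceeded 1.5 in either direction. This list, like all gene lists used here, was chosen with earlier results of these data known. Its counts and medians are therefore given as a description. Against muscle P2, 9 of the 26 were called higher in muscle P1 and 1 lower, and the median log2 difference of the list was 2.08, with 0.24 over all genes tested. Over all genes 3.59% were called higher and 4.62% lower in this comparison. The largest difference of the list was that of Fgfr4, a fibroblast growth factor receptor, which was at 1448, 655 and 877 in muscle P1 and at 0.481, 0 and 0 in muscle P2 (log2 difference 9.69 ± 1.32 SE, adjusted p = 2.59e-05 by limma). Megf10, a receptor with epidermal growth factor repeats, was 466, 491 and 599 in muscle P1 and at most 9.35 in muscle P2 (6.90 ± 1.47, adjusted p = 0.00302). Syndecan-4 (Sdc4) was also called higher (3.47 ± 0.53, adjusted p = 0.000104), as were Ncam1 and syndecan-3 (Sdc3), the chemokine receptor Cxcr4, and the Notch receptor Notch3 with the Notch targets Hey1 and Heyl. Lbx1, a homeobox factor of migrating muscle precursors, was called lower in muscle P1, at 12.8, 17.7 and 39.1 against 156, 290 and 142 (-3.10 ± 0.84, adjusted p = 0.0185). The calls of Lbx1, Sdc3, Heyl, Hey1, Cxcr4 and Notch3 were each lost without 1 or more single libraries: muscle P1 replicate 1 for Lbx1, Heyl and Hey1, replicate 2 for Lbx1, Hey1 and Cxcr4, replicate 3 for Sdc3, Heyl, Hey1 and Cxcr4, muscle P2 replicate 1 for Notch3, replicate 2 for all but Notch3, and replicate 3 for Sdc3, Heyl and Cxcr4.

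Fewer genes of the list were called against muscle P3. There 2 of 26 were called higher and 0 lower in muscle P1, 9 had an unadjusted p below 0.05, and the list median was 1.5 with -0.07 over all genes, of which 0.141% were called higher and 0.325% lower. Asb5, an ankyrin repeat protein of muscle, was at 746, 1024 and 495 in muscle P1 and at 16.9, 28.6 and 0 in muscle P3 (6.48 ± 0.97, adjusted p = 0.00117 by limma). Lbx1 was the other, at 0, 0 and 3.84 in muscle P3 (3.69 ± 0.84, adjusted p = 0.0428), and its call was lost in 11 of the 27 fits that left out 1 library. Both calls, of Asb5 and of Lbx1, were lost with a pseudocount of 0.1, under which 0 of the 26 were called higher (5 with an unadjusted p below 0.05, limma). Fgfr4 had a difference of 5.19 ± 1.32 (adjusted p = 0.0873) and Sdc4 of 2.02 ± 0.53 (adjusted p = 0.0989), which did not pass.

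Between tissues most genes of the list were not called. Against periosteum P1, 9 were called higher and 1 lower, with a median of 2.64 against 0.40 over all genes, of which 4.34% were called higher and 0.559% lower. The 9 were Asb5, Megf10, Des (desmin), Fgfr4, Dmrt2, Rapsn, Itga7, Cxcr4 and Lbx1. Of these, Des, Rapsn and Lbx1 had higher means in muscle P2, at 86314.5, 570 and 196, than in muscle P1, at 5091.7, 141 and 23.2. The others had lower means in muscle P2 than in muscle P1. The part of muscle fibre transcripts in the calls of these genes was not tested. Itga7, the laminin-binding integrin subunit used to isolate satellite cells, was at 1214, 527 and 1051 in muscle P1 and at 0.659, 73.3 and 202 in periosteum P1 (4.90 ± 1.35, adjusted p = 0.0321 by limma). Its call was lost without any 1 of the muscle P1 libraries or without periosteum P1 replicate 1, and those of Rapsn and Dmrt2 were lost without muscle P1 replicate 2 or 3 or without periosteum P1 replicate 1, and also without periosteum P1 replicate 3 (Rapsn) or 2 (Dmrt2). Against bone marrow P1, 10 were called higher and 1 lower, with a median of 2.45 against 0.06, and 5.40% of all genes were called higher and 2.94% lower. Fgfr4, Asb5, Dmrt2 and Lbx1 were listed at 0 in all 3 bone marrow P1 libraries, so no fold is given for them. The others were Cav1, Itga7, Met, Rapsn, Sdc4 and Sox8, and the call of Met was lost without any 1 of the muscle P1 libraries or without bone marrow P1 replicate 1 or 2. Sdc3 was the gene called lower in both, with log2 differences of -3.11 against periosteum P1 (adjusted p = 0.0424, limma) and -4.16 against bone marrow P1 (adjusted p = 0.00289), and the first of these calls was lost in 14 of the 27 fits that left out 1 library. Of the list, Pax3, the paralogue of Pax7, was at 61.3, 31.3 and 29.6 in muscle P1 and was called in none of the 4 comparisons, with log2 differences of 1.54 to 3.15. Six4 and Eya1, factors upstream of the MyoD family, were also called in none of them.

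**Figure D3:**
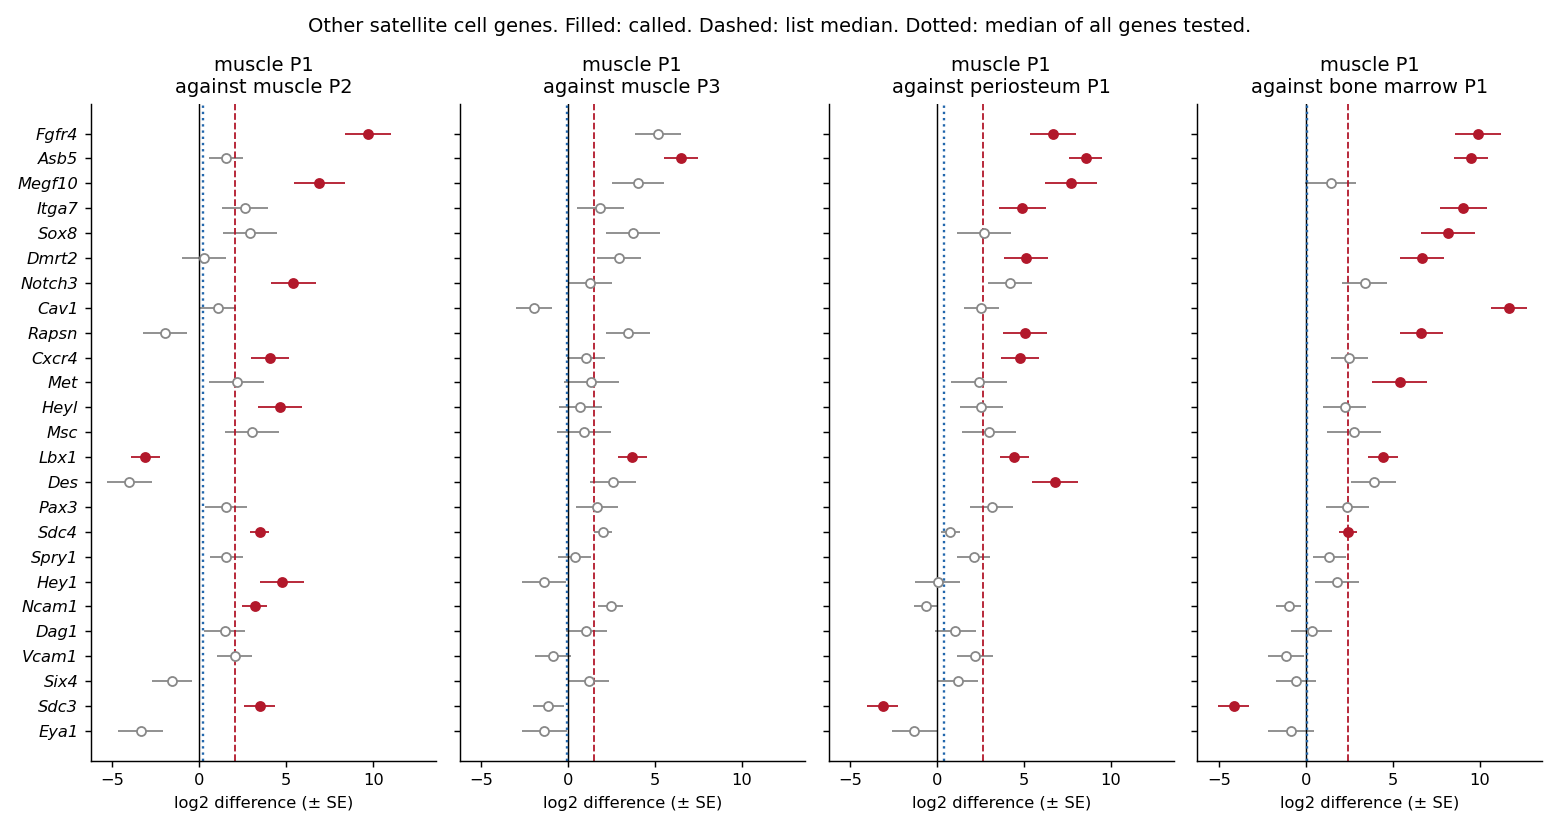
Log2 difference of muscle P1 from 4 other groups (± SE) for 25 of the 26 other satellite cell genes, filled where the gene was called, with a dashed line for the median of the 26 and a dotted line for the median of all genes tested. The list median lies to the right of that of all genes in each panel, 1.5 against muscle P3 and 2.08 to 2.64 in the other comparisons, and differences of genes listed at 0 in the other group (Fgfr4, Asb5, Dmrt2 and Lbx1 in bone marrow P1, Lbx1 in periosteum P1) depend on the pseudocount.

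A list of muscle differentiation genes was tested in the same 4 comparisons. Of 20 genes in the list, 19 were tested, and Mymx, which encodes the fusion protein myomixer, was listed at 0 in every library of muscle P1 and P2. Against muscle P2, 0 were called higher in muscle P1 and 2 lower, namely Myf6, the factor of mature fibres, and Myog, which encodes myogenin, and 5 of the 19 had an unadjusted p below 0.05 (limma). Myf6 was at 24.9, 57.5 and 64.2 in muscle P1 and at 2520, 2753 and 3181 in muscle P2 (-5.92 ± 1.23, adjusted p = 0.0024). Myog was at 0, 97.1 and 0 in muscle P1 and at 97.0, 192 and 189 in muscle P2 (-5.05 ± 1.16, adjusted p = 0.00594), a call that was lost without muscle P1 replicate 1 or 3. The same library, muscle P1 replicate 2, held Mymk at 85.7 and the embryonic myosin Myh3 at 43.6, which were at 0 in the other 2 libraries of muscle P1, and it had the highest summed myofibre level of the group. Against muscle P3 0 were called higher and 1 lower, the junction protein Jam2, with 4 unadjusted p below 0.05. Against periosteum P1 2 were called higher (Actc1 and Myf6) and against bone marrow P1 3 were (Musk, Myf6 and Tnnt1), with 0 lower in both and 8 and 7 unadjusted p below 0.05. These counts of 19 stand beside 3.59% of all genes called higher and 4.62% lower against muscle P2, 0.141% and 0.325% against muscle P3, 4.34% and 0.559% against periosteum P1 and 5.40% and 2.94% against bone marrow P1. The list medians were 0.45, 0.68, 1.83 and 0.82 in the 4 comparisons. The calls of Jam2, of Actc1 and of Myf6 against periosteum P1, and of Tnnt1, were each lost in 4 to 7 of the 27 fits that left out 1 library.

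Genes that work with the 7 were counted next. For comparison, 3.59% of all genes were called higher and 4.62% lower against muscle P2, and 0.141% and 0.325% against muscle P3. The shares were 4.34% and 0.559% against periosteum P1 and 5.40% and 2.94% against bone marrow P1. The Notch pathway, which helps keep satellite cells undifferentiated, had 7 of 15 tested genes called higher against muscle P2, 3 against periosteum P1 and 4 against bone marrow P1, with 0 lower. Against muscle P3 0 were called (4 with an unadjusted p below 0.05, limma). Notch3 was at 2001, 2805 and 4271 in muscle P1 and at 23.0, 127 and 104 in muscle P2 (5.40 ± 1.29, adjusted p = 0.008), and Hes1, a Notch target, was at 834, 1026 and 955 against 171, 244 and 137 (2.38 ± 0.69, adjusted p = 0.0291). Notch3 and Heyl are also known from mural cells. The lists share genes: Notch3, Hey1 and Heyl are also among the other satellite cell genes, and Notch3 is also in the mural cell list. Their calls are counted in each list, so the counts are not separate results. Of the 7 tested partners of the calcitonin receptor, 0 were called against muscle P2 or muscle P3 (0 and 1 with an unadjusted p below 0.05), 1 was higher against periosteum P1 and 3 against bone marrow P1. Ramp1, a receptor activity modifying protein, was at 1007, 1493 and 1535 in muscle P1 and was called in none of the 4. Calcrl, a related receptor of endothelial cells, was called higher against periosteum P1 (5.07 ± 1.06, adjusted p = 0.00497) and bone marrow P1 (6.06 ± 1.06, adjusted p = 0.00038).

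Among 10 cadherins and catenins, 2 were called higher in muscle P1 against muscle P2, 0 against muscle P3 (4 with an unadjusted p below 0.05, limma), 2 higher and 1 lower against periosteum P1, and 2 higher and 3 lower against bone marrow P1. In the same order, the shares of all genes called higher and lower were 3.59% and 4.62%, 0.141% and 0.325%, 4.34% and 0.559%, and 5.40% and 2.94%. Cdh11, a cadherin of mesenchymal cells, was higher than in muscle P2 (5.43 ± 0.96, adjusted p = 0.000491) and lower than in bone marrow P1 (-3.43 ± 0.96, adjusted p = 0.0223), the group in which Cdh15 was also highest. The 10 tetraspanins other than Cd82 had 0 genes called against muscle P2, muscle P3 and periosteum P1, with 4, 1 and 1 at an unadjusted p below 0.05, and 3 called lower against bone marrow P1. Cd9, Cd63 and Cd81 had adjusted p values of 0.0213, 0.0486 and 0.0309 against muscle P2 but differences of 1.18, 1.07 and 1.17, under the threshold of 1.5.

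Markers of other cells were present in muscle P1 as well. Over all genes, 3.59% were called higher and 4.62% lower in muscle P1 than in muscle P2. Of 10 mural cell genes, 6 were called higher in muscle P1 than in muscle P2, and their summed normalized counts were 55921 to 121884 in muscle P1, 2714 to 5033 in muscle P2 and 30260 to 39519 in muscle P3, with 0 of the 10 at 0 throughout muscle P1. The smooth muscle actin Acta2 was at 24057, 54709 and 60522 in muscle P1. Of 9 Schwann cell genes tested, 4 were called higher than in muscle P2, and the sum of the 10 in the list was 2652 to 4034 in muscle P1 and 1546 to 2559 in muscle P2. Against muscle P3, 0 of the 10 mural and 0 of the 9 Schwann cell genes were called (0 and 3 with an unadjusted p below 0.05, limma). Of all genes, 0.141% were called higher and 0.325% lower there. Against periosteum P1, 2 mural genes were called higher, and 4 Schwann cell genes higher and 1 lower (all genes 4.34% and 0.559%). Against bone marrow P1, 6 mural and 5 Schwann cell genes were called higher and 0 lower (all genes 5.40% and 2.94%). Genes of fibro-adipogenic progenitors, the mesenchymal cells of muscle, had the highest sums of the marker lists in muscle P1, 591124 to 747662 in muscle P1 and 576220 to 747148 in muscle P3, and 1 of the 10, Col1a1, was called higher than in muscle P2.

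Endothelial genes, in contrast, were highest in muscle P3, with sums of 46223 to 66578 there and 5675 to 14914 in muscle P1, and 4 of the 10 were called lower in muscle P1. The share of all genes called lower against muscle P3 was 0.325%. Against P1 of the other tissues, 6 of the 10 endothelial genes were called higher in muscle P1 than in periosteum P1. Against bone marrow P1, 7 were called higher, with 0 lower in both. The leukocyte list summed to 507 to 753 in muscle P1. Myofibre genes had 13 of 15 called lower in muscle P1 than in muscle P2 and 13 called higher than in P1 of the 2 other tissues, and Acta1, the skeletal muscle actin, was at 22648, 26001 and 14187 in muscle P1, 1030835 to 1275861 in muscle P2 and 757 to 1730 in muscle P3. All 6 erythroid genes were called lower in muscle P1 than in muscle P2. Of all genes, 4.62% were called lower against muscle P2, 4.34% higher against periosteum P1 and 5.40% higher against bone marrow P1. The part of these cells in the levels of the 7 genes was not tested.

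**Figure D4:**
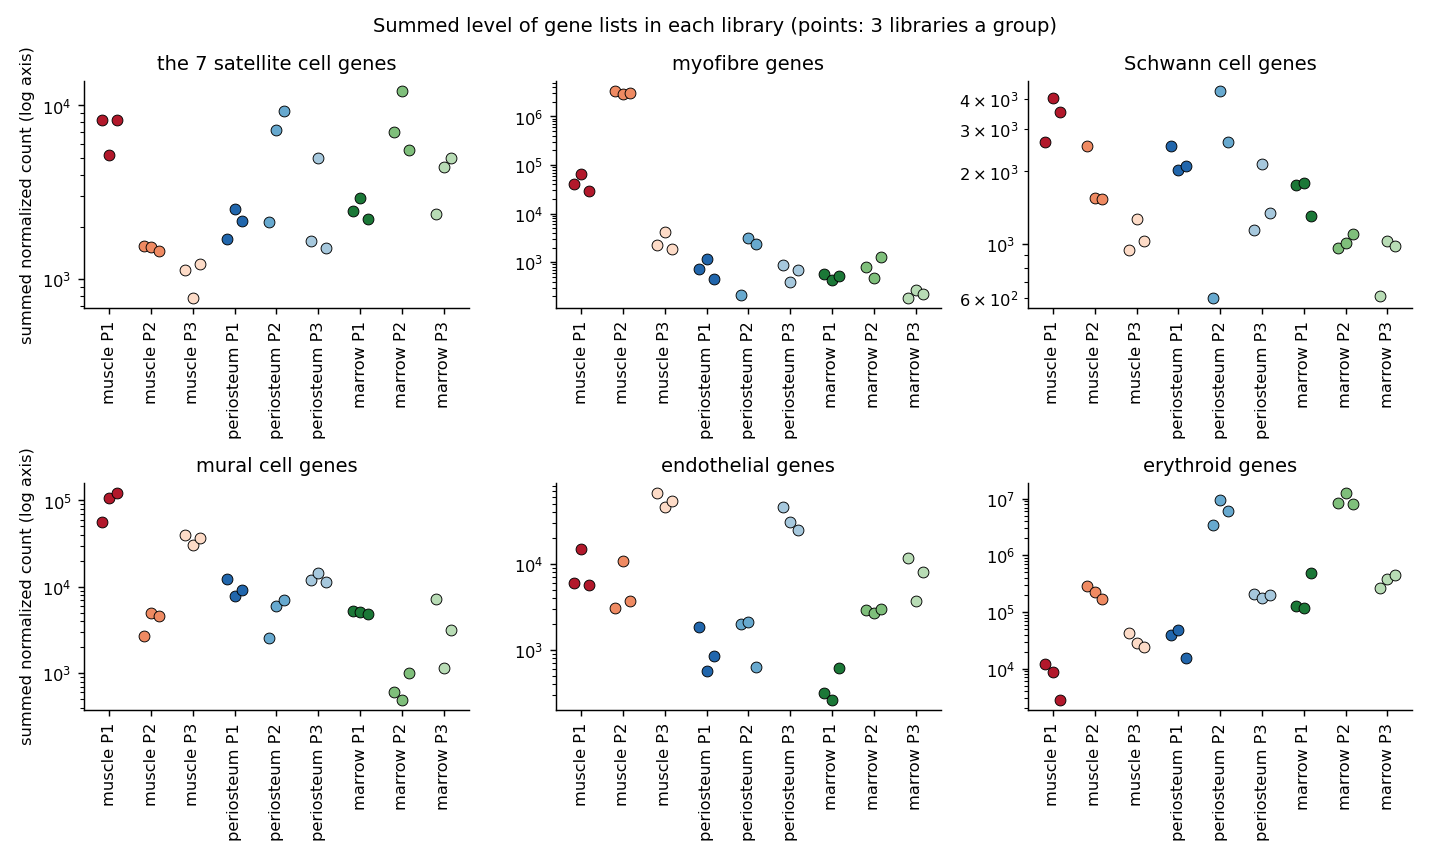
Summed normalized counts (log axes) of the 7 satellite cell genes and of 5 lists of marker genes in each library, by group on the horizontal axis, with 3 points per group. The sum of the 7 genes is 5162 to 8270 in muscle P1 and is also high in bone marrow P2 and periosteum P2, where Cd82 makes up nearly all of it, the myofibre sum is highest in muscle P2, the mural sum in muscle P1, the endothelial sum in muscle P3 and the erythroid sum in bone marrow P2.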

How the data were processed

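RNA of sorted Prx1 cells was sequenced in 27 libraries, 9 groups of 3. Per the labels, full-length cDNA was amplified with a SMART-Seq v4 kit and libraries were made with Nextera XT. The authors trimmed reads with Trim Galore, aligned them with STAR and handled counts with DESeq2. Versions of these tools, the genome build, the annotation and the counting tool are not given in the sources used here. The table the authors deposited holds normalized counts, a signal that is not whole reads: 20.7% to 94.5% of the low values of a library lay within 0.1 of a whole multiple of 1 fitted step, so whole reads could not be recovered. Read depth is therefore unknown, and no counting error is given. A row for transgenes was left out of the tests.

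Values were analysed as log2(normalized count + 1) with limma 3.58.1 in R 4.3.3, with 1 mean for each of 9 groups, eBayes with a trend and Benjamini-Hochberg adjustment over the 18442 genes with at least 10 in at least 3 libraries (11711 of 30153 were removed). A call needed an adjusted p under 0.05 and a log2 difference over 1.5 in either direction. A difference on this scale understates the change of low genes. The fitting step was first tested on simulated data. For muscle P1 against muscle P3, it called 44 of 100 genes changed by a log2 of 3 and 92 of 100 changed by 6. All of these had the right direction, and 8 of 18242 unchanged genes were called. A gene that was not called can therefore still differ. Muscle P1 was compared with muscle P2, muscle P3, periosteum P1 and bone marrow P1. Python (3.11.15) with pandas (2.3.3) and numpy (2.4.6) gave group means and likeness, and matplotlib (3.10.9) the figures. Gene positions are those of GENCODE M21, in which 29732 of the 30153 identifiers were found. Promoter windows are from RefSeq, and those of chromosome 18 were not searched for motifs. The 7 genes and all gene lists were chosen with earlier results of these data known. Genes named in the text are the 7, all of the 2 myogenic lists, the 5 with the highest mean level of any other list, 4 genes of the sort, and the 10 genes most like the mean of the 7 and 3 most like each. Alternatives were other pseudocounts, filters, scalings, a replicate block, a fit without the trend, other sets of groups fitted, no fold threshold, and each library left out in turn. Single genes of the lists that are counted but not named are not reported here.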

Additional observations from a re-analysis of the deposited data

Results flagged for a closer look

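Each group has 3 libraries, too few for a test of single outlying samples. A gene of the 7 is listed here where every P1 library of muscle moved one way against another population and every P1 library of a second tissue moved the opposite way. The difference between the tissues was not tested in any of these cases, and the values are differences of the P1 effect, muscle minus the second tissue, on the scale of log2(normalized count + 1).

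Cd82 had a P1 to P2 difference of 3.97 in muscle, against -3.04 for periosteum and -3.20 for bone marrow, so that the muscle effect differed by 7.02 from that of periosteum and by 7.17 from that of bone marrow. Its P1 to P3 difference was 2.16 in muscle and -2.14 in bone marrow, a gap of 4.30. For Calcr the P1 to P2 difference was 5.92 in muscle and -3.88 in bone marrow, a gap of 9.79, where the bone marrow values were 0 to 2.08 in P1 and 6.80 to 37.9 in P2. Muscle P2 was at 16.5, 0 and 12.6, and with values this low the Calcr gap depends on the pseudocount. For Pax7 the gap was 12.61, with bone marrow P1 listed at 0 and bone marrow P2 at 7.03 to 40.2, and since muscle P2 and bone marrow P1 are both at 0 this value depends on the pseudocount.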

How the results depend on the processing

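All 532 log2 differences of the 7 genes recomputed under the alternatives had the sign of the main value, and 36 moved by more than the spread between replicates under another pseudocount or scaling. Genes called in muscle P1 against muscle P3 (86) were 40 with a pseudocount of 0.1, 229 with 5, 213 after quantile normalization and 766 with the 2 groups fitted alone, and the other satellite cell genes called higher (2) were 0 (limma, 5 higher with an unadjusted p below 0.05), 5, 3 and 8. That count was also 1 without a filter and 1 with a mean of at least 50. Fitted alone, the 2 groups gave 2487 genes against muscle P2 (1514) and 2862 against bone marrow P1 (1538). An alternative chosen after seeing the data, the 5 groups of the comparisons fitted alone, gave 2582, 273 and 1574 genes against muscle P2, muscle P3 and periosteum P1 (904), and 4 other satellite cell genes against muscle P3. The cause of these moves was not tested. With each library left out in turn, genes called were 984 to 1832, 22 to 111, 497 to 1119 and 1087 to 1745 against muscle P2, muscle P3, periosteum P1 and bone marrow P1, and other satellite cell genes called higher were 5 to 9, 1 to 3, 6 to 10 and 9 to 11. Against muscle P2 the counts were lowest without muscle P1 replicate 3 (984), muscle P1 replicate 1 (999) or, for the list, muscle P1 replicate 3 or muscle P2 replicate 2 (5 each). The list count against muscle P3 was 1 without any 1 of the libraries of muscle P1, bone marrow P1 or bone marrow P3, or without muscle P3 replicate 1 or 2. Against muscle P3 they were 38, 43 and 51 without muscle P1 replicates 1, 2 and 3 and 22, 45 and 26 without muscle P3 replicates 1, 2 and 3, and against periosteum P1 518, 534 and 497 without muscle P1 replicates 1, 2 and 3. Of the 41 calls in the 2 myogenic lists, all kept their sign in the 27 fits, and 5 of 12, 1 of 3, 6 of 12 and 12 of 14 were called in every fit. No pairing by replicate number was seen: the mean correlation of same-numbered deviations was -0.059 to 0.050 over 36 pairs of groups. A low correlation cannot show that same-numbered libraries came from different animals. With the replicate block 1478, 76, 876 and 1546 genes were called and 9, 1, 10 and 10 of the list. Scaling to equal totals moved the median of all genes from 0.24 to 0.77 against muscle P2, 0.40 to 0.57 against periosteum P1 and 0.06 to 0.64 against bone marrow P1, and quantile normalization moved the 4 medians to -0.03, 0.03, -0.12 and -0.15. Against muscle P2 the share of calls higher in muscle P1 was 43.7%, and 73.3% with equal totals, against periosteum P1 88.6% and 66.6% after quantile normalization, and against bone marrow P1 64.8% and 80.5% with equal totals. Read depth is unknown, so values of a few normalized counts cannot be told from 0.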
